A study of Mus musculus with 23 samples.

Results

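A set of 9 named growth factor genes of mesenchymal stem cells (MSCs) were followed through single-cell RNA-seq libraries: Vegfa, Vegfb, Vegfc, Hgf, Fgf2, Fgf7, Angpt1, Csf1 and Pdgfa. They were taken by gene symbol, and all 9 were found among the 23284 genes of the expression table. The table held 23 libraries: 16 single mouse bone marrow MSCs (mMSC1 to mMSC16), 5 single HL-1 cardiomyocytes (HL1cm1 to HL1cm5) and 1 population control of many cells for each type (mMSC-PC and HL1cm-PC). All libraries carried the strain C57BL/6J in their labels. The mMSCs, bought from a supplier that took them from the marrow of 3-month-old male animals, were at passages 6 to 11 on gelatin, with no differentiation or immune stimulus. HL1cm, a proliferating line of mouse atrial muscle cells used here as the negative control, were at passages 70 to 85 and grew in a medium with norepinephrine. Live single cells of both types were captured on a chip for cells of 17 to 25 µm, the HL1cm after staining with a green dye. Separate cultures were not named for either type. Each type was therefore treated as 1 sample, no test between them was made, and the spread given is that between cells.

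MSCs act on neighbouring cells in large part through secreted proteins, and growth factors for blood vessels, epithelium and blood cells are among those most often measured in them. VEGF-A, made by Vegfa, drives vessel growth through VEGF receptors, and VEGF-B and VEGF-C, its relatives, act on vessel, heart and lymphatic tissue. HGF and FGF7 (keratinocyte growth factor) act mainly on epithelial cells, FGF2 acts broadly on fibroblasts and vessels, angiopoietin-1 (Angpt1) steadies vessels through the receptor Tie2, CSF1 sustains macrophages, and PDGF-A acts on mesenchymal cells themselves. All of these are read here as transcripts, and secreted protein was not measured.

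The sequence just upstream of the start site is shown for the 3 genes read in every mMSC (Fgf7, Csf1 and Vegfa) and for Vegfb, which was read in every HL1cm. Each is the 250 bases before a RefSeq start site on the GRCm38.p6 assembly, written 5′ to 3′ on the strand of the gene. Capitals mark GGGCGG, the GC box, or its reverse complement CCGCCC, and the letters CCAAT. The windows are chr2:126034408-126034657 (plus strand) for Fgf7, chr3:107760470-107760719 (minus) for Csf1, chr17:46032378-46032627 (minus) for Vegfa and chr19:6987652-6987901 (minus) for Vegfb.
Fgf7: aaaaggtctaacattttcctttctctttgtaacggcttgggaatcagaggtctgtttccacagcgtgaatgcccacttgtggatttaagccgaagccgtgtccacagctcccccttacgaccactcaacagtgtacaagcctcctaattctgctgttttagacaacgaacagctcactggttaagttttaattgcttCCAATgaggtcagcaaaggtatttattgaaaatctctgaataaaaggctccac
Csf1: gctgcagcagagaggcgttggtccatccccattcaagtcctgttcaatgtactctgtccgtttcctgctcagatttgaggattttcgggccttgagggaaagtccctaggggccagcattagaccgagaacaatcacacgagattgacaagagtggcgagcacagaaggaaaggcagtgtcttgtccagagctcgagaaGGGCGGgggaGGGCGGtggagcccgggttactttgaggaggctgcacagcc
Vegfa: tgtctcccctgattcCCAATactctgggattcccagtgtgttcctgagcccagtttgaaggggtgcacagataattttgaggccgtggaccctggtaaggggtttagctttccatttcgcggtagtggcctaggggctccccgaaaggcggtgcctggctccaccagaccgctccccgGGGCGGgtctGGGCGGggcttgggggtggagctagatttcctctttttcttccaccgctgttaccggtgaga
Vegfb: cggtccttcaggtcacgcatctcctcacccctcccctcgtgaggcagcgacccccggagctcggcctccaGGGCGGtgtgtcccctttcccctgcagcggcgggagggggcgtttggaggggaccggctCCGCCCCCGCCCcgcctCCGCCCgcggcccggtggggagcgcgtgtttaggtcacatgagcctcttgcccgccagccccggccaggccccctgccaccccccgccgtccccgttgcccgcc
The Fgf7 window was the poorest in G and C of these, at 43.6%, against 56.4% for Csf1, 59.2% for Vegfa and 76.4% for Vegfb. The median over all 32851 RefSeq windows of this length was 52.4%. GC boxes began 51 and 41 bases before the start site of Csf1 and 72 and 62 bases before that of Vegfa, and 4 of them lay in the Vegfb window, none overlapping another. CCAAT began 53 bases before the Fgf7 start and 235 bases before the Vegfa start. On either strand, GGGCGG was in 32.7% of all windows and CCAAT in 33.8%. The letters TATAAA (12.4% of all windows) and ACGTG, a form of the hypoxia response element core (16.6%), were not in these 4 windows. The other form of that core, GCGTG, was not counted over all windows and is in the Fgf7 and Vegfb windows. Vegfa has a second RefSeq start site, whose window (chr17:46025164-46025413, not printed) holds ACGTG on the reverse strand 211 bases before the start. Such matches describe the sequence and are not binding sites. Of the 9 genes, 8 had a window in the RefSeq table, and Angpt1 did not.

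Expression was given as FPKM, the number of sequenced fragments of a gene scaled for its exon length and for the mapped total of the library. A gene was counted as read in a cell at 1 FPKM or more, the limit of detection in the study's own script, and values under 1 were set to 1 before log2 was taken. The single cells had 5178 to 7241 genes at this level in the mMSCs and 6428 to 7010 in HL1cm, and the population controls had 9625 and 9881. The table holds no read counts. As a guide to depth, the 10th percentile of the non-zero values, for a transcript of 1 kb, was 2.56 to 13.7 FPKM in the mMSC libraries, with a median of 4.29, and 3.19 to 5.21 in HL1cm. This low end of the scale is coarser in shallower libraries. mMSC9 and mMSC15 were the coarsest libraries by this measure, at 13.7 and 12.4, and also had the fewest genes. The labelled cell types were checked against marker genes. All 9 cardiomyocyte markers were at least 1 log2 unit higher in HL1cm, as were 19.4% of 13543 genes. Their sums were 32948 to 60053 FPKM against 0 to 65.4 in the mMSCs. Of 10 mesenchymal markers, 7 were at least 1 log2 unit higher in the mMSCs (18.8% of those genes). Sums over that list were 1284 to 5963 FPKM against 174 to 854. Sparc (161 to 833 FPKM in HL1cm) and Prrx1 were also read in all 5 HL1cm, with log2 differences of 1.09 and 1.29. Thy1, Lum and Dcn were listed at 0 in every library. Of 10 macrophage and blood markers, Ptprc, Lyz2, Emr1, Laptm5 and Tyrobp were at 0 in every library, and the sum over the list was 3.10 to 369 FPKM in the mMSCs, of which 15 carried Cd14, against 0 to 1.10 in HL1cm. Cdh5, Tek, Tie1, Emcn and Cldn5, of 9 endothelial markers, were at 0 in every library, and the sum over the list was 0 to 10.8 FPKM in the mMSCs and 0 to 19.0 in HL1cm. A value of 0 is a listed value and not proof of absence: Canx, a chaperone that all cells use, was listed at 0 in mMSC12, with a median of 1082 FPKM over the 16 mMSCs.

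Fgf7 and Csf1 were the abundant growth factor transcripts of the mMSCs. Every mMSC carried both, and in all 16 cells both stood above each of the other 7 genes. Vegfa was read in every mMSC at a lower level, Pdgfa in 12 and Angpt1 in 9, or in 4 at a limit of 5 FPKM. Vegfb was read in 6, Fgf2 and Vegfc in 2 each and Hgf in none. HL1cm showed another order, with Vegfb the highest of the 9 in 4 of the 5 cells, although Pdgfa was the highest in the HL1cm-PC. The plot of levels by gene shows both patterns.

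**Figure D1:**
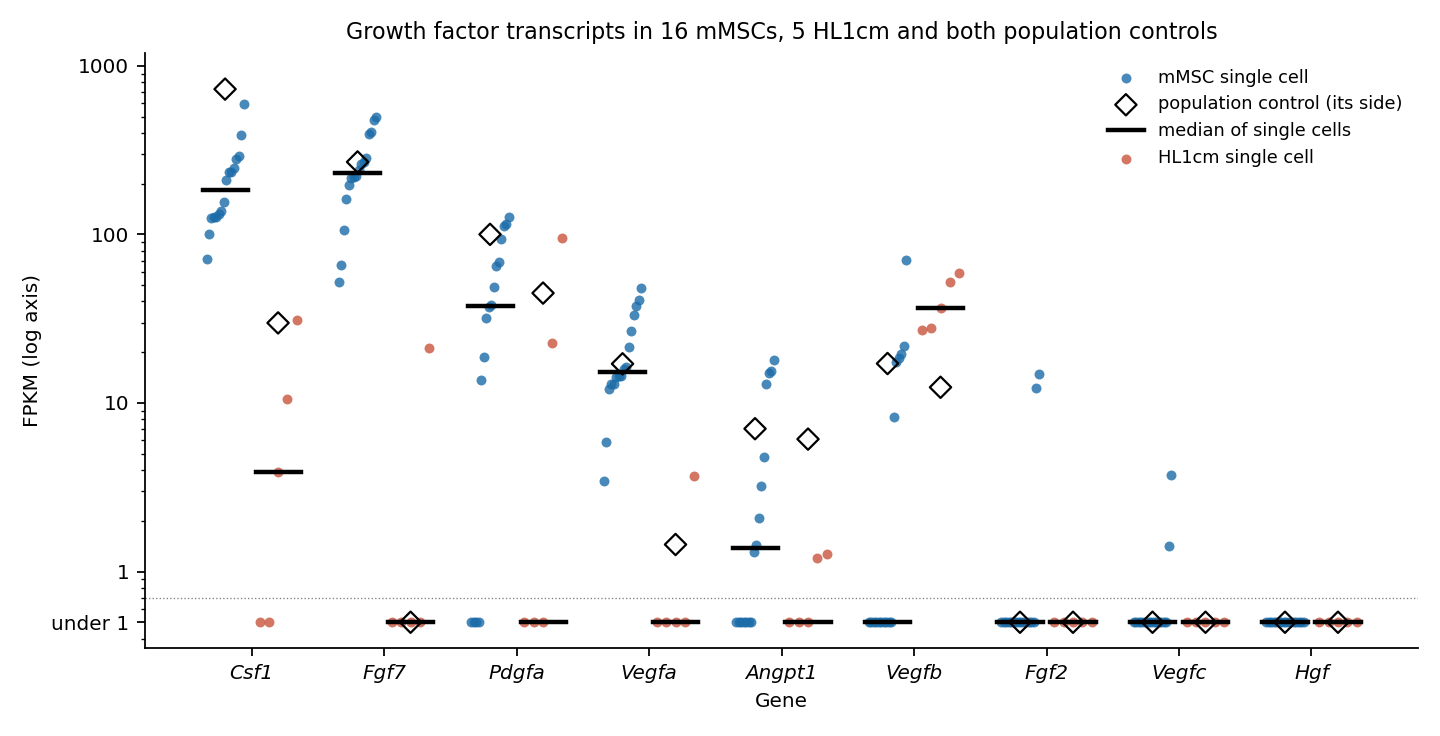
FPKM of each gene on a log axis in 16 single mMSCs (blue), 5 single HL1cm (red) and the population control of each type (open diamonds), with values under 1 FPKM placed below the dotted line and bars at the medians. Csf1 and Fgf7 lie at 52.6 FPKM or more in every mMSC, Vegfb is read in all 5 HL1cm and 6 of the 16 mMSCs, and Hgf is at 0 throughout.

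Fgf7, the epithelial growth factor, lies on chromosome 2 at 126034658-126091185 on the plus strand (GRCm38, GENCODE). Its lowest mMSC value was 52.6 FPKM in mMSC5, the median 232 and the highest 497 in mMSC15. The mean over the 16 cells was 255 ± 133 FPKM (SD, n = 16). In HL1cm it was 0, 21.1, 0, 0 and 0 FPKM in cells 1 to 5. Every mMSC was thus above every HL1cm, and the difference in mean log2 FPKM was 6.88. HL1cm2, the 1 control cell with a value, was still below the lowest mMSC. The mMSC-PC was at 269 FPKM, 1.06 times the mean of the single cells, and the HL1cm-PC was listed at 0. In these controls, which are bulk samples, fewer expressing cells and less RNA per cell cannot be told apart.

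Csf1, the macrophage growth factor, lies on chromosome 3 at 107741048-107760469 on the minus strand. It ran from 71.6 FPKM in mMSC8 through a median of 183 to 595 in mMSC10, with a mean of 216 ± 132 (SD, n = 16). In HL1cm it was 0, 10.6, 31.0, 3.88 and 0 FPKM in cells 1 to 5. The groups again did not overlap, although 3 of the 5 HL1cm carried the transcript, and the log2 difference was 5.48. Csf1 differed from Fgf7 in the population control: the mMSC-PC stood at 728 FPKM, above all 16 single cells and 3.37 times their mean. Divided by Gapdh, which was at 551 FPKM in mMSC-PC against a median of 202 in the cells, it lay within their range. Of 12567 genes at 1 FPKM or more in any single mMSC, 8.13% had the mMSC-PC above the highest single cell and 90% had it within the range of the cells. The values of the other 8 genes were within that range. For Hgf, which is not among the 12567, and for Vegfc and Fgf2, the mMSC-PC and the lowest cell were both at 0. In the HL1cm-PC, Csf1 was at 29.9 FPKM.

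The order of Fgf7 and Csf1 was not fixed between cells. Fgf7 was the higher in 8 mMSCs and Csf1 in the other 8, so that their levels were not separated beyond the spread between cells. Together they made up 75.0% to 93.6% of the summed FPKM of the 9 genes in an mMSC, with a median of 85.6%. The sum itself ran from 269 to 977 FPKM, with a median of 548. In HL1cm the sum was 37.5 to 155 FPKM, and Fgf7 with Csf1 made up 0 to 36.2% of it. FPKM is a value per length, so that levels of these genes can be set side by side within a library.

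**Figure D2:**
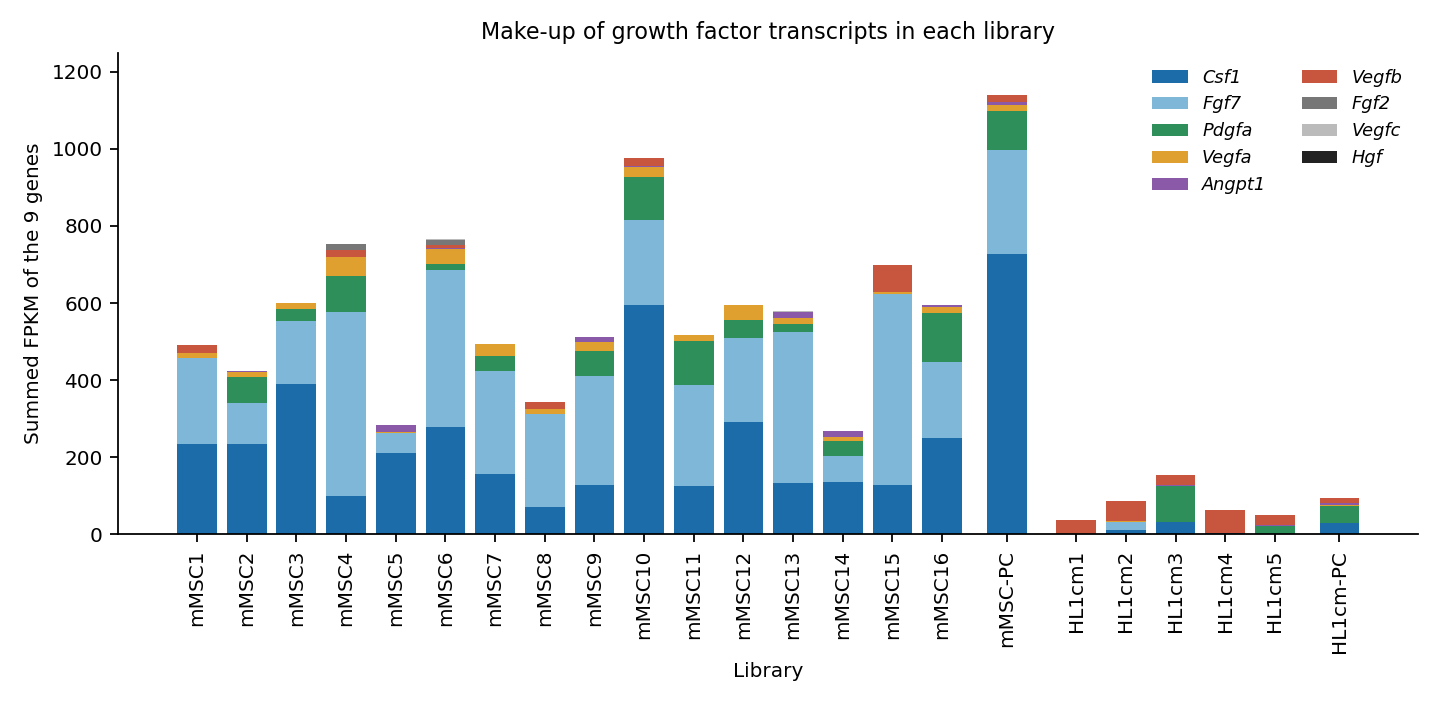
Summed FPKM of the 9 genes in each library, stacked by gene. Csf1 and Fgf7 fill most of every mMSC bar (75.0% to 93.6% of the sum), in proportions that change from cell to cell, and Vegfb or Pdgfa fills most of each single HL1cm bar.

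Vegfa, the main vessel growth factor of the group, lies on chromosome 17 at 46016993-46032369 on the minus strand. Its lowest mMSC value was 3.44 FPKM in mMSC5, the median 15.3 and the highest 47.8 in mMSC4, with a mean of 20.7 ± 12.9 (SD, n = 16). In HL1cm it was 0, 3.69, 0, 0 and 0 FPKM. The groups overlapped at 1 pair only: mMSC5 was just below HL1cm2, and the other 15 mMSCs were above every HL1cm. The log2 difference was 3.70, and the population controls, at 17.1 FPKM for mMSC-PC and 1.45 for HL1cm-PC, differed in the same direction by 3.56. With values under 10 FPKM set to 10, the single-cell difference was 0.90.

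Vegfb, its relative, was the gene with the opposite direction. It lies on chromosome 19 at 6982473-6987651 on the minus strand. In HL1cm it was 36.8, 52.3, 28.0, 59.4 and 27.2 FPKM in cells 1 to 5. In the mMSCs it was at 18.4 FPKM in mMSC1, 19.6 in mMSC4, 8.30 in mMSC6, 17.5 in mMSC8, 21.6 in mMSC10 and 70.5 in mMSC15, and at 0 in the other 10. It was thus read in 37.5% of the mMSCs (exact Clopper-Pearson 95% interval 15.2% to 64.6%) and in 5 of 5 HL1cm. This interval, like those for the genes below, covers counting error alone, for listed values in further cells from the same cultures. Only mMSC15 was above an HL1cm value, and it was above all 5. The log2 difference was -3.63. It was -1.54 with values under 10 FPKM set to 10 and -2.06 when taken as log2 of the mean FPKM. The population controls did not share this direction: mMSC-PC was at 17.1 FPKM and HL1cm-PC at 12.4, below each of the 5 single HL1cm, a log2 difference of 0.47. The transcript of Vegfb is short, at 1281 bases, and this low end was, for that length, 2.00 FPKM in mMSC6, 3.35 in the median library and 10.7 in mMSC9.

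Vegfc, the lymphatic member of the family, was close to the floor. It lies on chromosome 8 at 54077606-54187096 on the plus strand. It was at 3.73 FPKM in mMSC13 and 1.41 in mMSC6 and was listed at 0 in the other 14 mMSCs, the 5 HL1cm and both population controls. The share of mMSCs with a value was 12.5% (exact interval 1.55% to 38.3%). mMSC6 and mMSC13 were also the finest mMSC libraries by the depth guide (2.56 and 3.16). For the length of this transcript the low end was 1.75 FPKM in the median mMSC library. The part of depth in the Vegfc zeros was not tested.

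Pdgfa split the mMSCs more than any other of the 5 genes read in at least 8 of them. It lies on chromosome 5 at 138976014-138997370 on the minus strand, and its exons overlap those of the antisense gene 6330403L08Rik, whose reads cannot be told apart from its own in libraries that do not mark strand. It was listed at 0 in mMSC1, mMSC5, mMSC8 and mMSC15 and ran from 13.6 to 127 FPKM in the other 12, highest in mMSC16, with a median over all 16 cells of 37.7. No mMSC had a value between these. mMSC1, mMSC8 and mMSC15 were also among the 4 coarsest mMSC libraries by the depth guide above (8.18, 6.99 and 12.4), and mMSC5 was not (3.35). The part of depth in these zeros was not tested. In HL1cm Pdgfa was 0, 0, 95.1, 0 and 22.6 FPKM, so that the groups overlapped over most of their range. The log2 difference of 2.06 moved with single HL1cm. It was 3.15 without HL1cm3 and 1.51 without HL1cm1, HL1cm2 or HL1cm4, and 1.03 when taken as log2 of the mean FPKM. The population controls were at 100 FPKM for mMSC-PC and 44.9 for HL1cm-PC. With values under 10 FPKM set to 10 the difference was 0.90.

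Angpt1, the vessel-steadying ligand, was read in 9 of 16 mMSCs at low values. It lies on chromosome 15 at 42424723-42676977 on the minus strand and overlaps the antisense gene Gm17473, with the same limit. The lowest value was 0, the median 1.37 and the highest 18.0 FPKM in mMSC5, and mMSC9, mMSC13 and mMSC14 were also above 10 FPKM. In HL1cm it was 0.684, 0, 1.20, 0 and 1.26 FPKM. The 9 mMSCs at 1 FPKM or more were above every HL1cm, mMSC12 was at 0.465 FPKM and the other 6 were at 0. The median was close to the low end of the scale for this transcript length, 1.01 FPKM in the median mMSC library. The log2 difference was 1.23, but was below 1 with values under 10 FPKM set to 10 (0.15), with libraries scaled by their median ratio (0.96), on the log2(FPKM + 1) scale (0.97) and between medians (0.45). The population controls were alike, at 7.03 and 6.10 FPKM.

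Fgf2, the broad fibroblast growth factor, was present in 2 cells. It lies on chromosome 3 at 37348346-37410108 on the plus strand and overlaps Nudt6 on the opposite strand and Gm43439 on the same strand. It was at 14.9 FPKM in mMSC4 and 12.2 in mMSC6 and was listed at 0 in the other 14 mMSCs, all HL1cm and both population controls. Its transcript is the longest of the 9, at 5973 bases, for which the low end of the scale lay between 0.43 and 2.30 FPKM in the mMSC libraries. Hgf, the scatter factor, on chromosome 5 at 16553495-16620152 (plus strand), which overlaps Gm43489 on the same strand, was listed at 0 in all 23 libraries. Taking 3 cells as the limit that a count of 0 allows, up to 18.75% of mMSCs and 60% of HL1cm could carry a value, and the exact Clopper-Pearson 95% limits were 20.6% and 52.2%, from counting error alone. Both limit cells with a listed value, not cells that express the gene, in further cells drawn from the same cultures.

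These differences were set against all genes. Of the 9 genes, 8 were at 1 FPKM or more in at least 1 single cell and entered the comparison with 13543 genes in all. At least 1 log2 unit higher in mMSCs were 5 of them (Fgf7, Csf1, Vegfa, Pdgfa and Angpt1), where 18.8% of all genes tested were. At least 1 unit lower was 1 (Vegfb), against 19.4% of all genes. The median difference was 1.65 over the 8 genes and 0.075 over all genes tested, and 1.23 over all 9 with Hgf at 0. Every mMSC above every HL1cm was seen for Fgf7 and Csf1 and for 1.98% of all genes, and the reverse for none of the 8 and 1.65% of all genes. Fgf7, Csf1 and Vegfa were at 1 FPKM or more in every mMSC, as were 15.8% of all genes, and Vegfb was so in every HL1cm, as were 24%. Between the population controls, 4 genes were at least 1 unit higher in mMSC-PC (Fgf7, Csf1, Vegfa and Pdgfa; 20.5% of 11509 genes) and none was lower (39%).

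**Figure D3:**
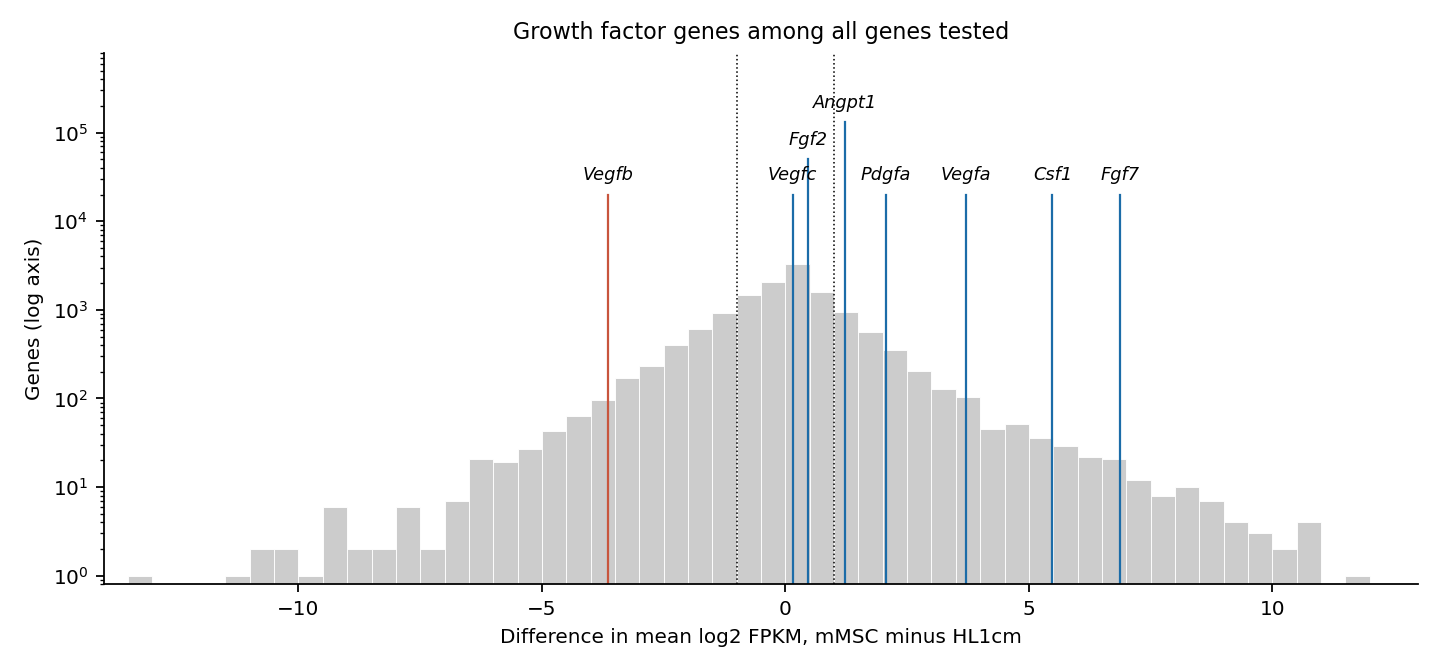
Number of genes (log axis) by difference in mean log2 FPKM, mMSC minus HL1cm, over 13543 genes, with the 8 growth factor genes that were read in a single cell marked by vertical lines and a difference of 1 either way by dotted lines. Fgf7 at 6.88 and Csf1 at 5.48 lie far out in the right tail and Vegfb at -3.63 in the left, while Vegfc and Fgf2 lie near the centre.

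The genes also differed in how even they were among the mMSCs. The SD of log2 FPKM over 16 cells was 0.79 for Csf1, 0.93 for Fgf7 and 1.00 for Vegfa, 1.68 for Angpt1 and 2.70 for Pdgfa. Over the 6777 genes read in at least 8 mMSCs the median SD was 1.50. Only 13.4% of those genes had a smaller SD than Csf1, 19.0% than Fgf7 and 22.1% than Vegfa. For Angpt1 the share was 61.5% and for Pdgfa 97.8%, so that Pdgfa, whose zeros were set to 1 FPKM, was among the most uneven genes. By mean level, Fgf7 and Csf1 had a higher mean than 97.9% and 97.7% of all 23284 genes in the table, including genes read in no single cell. Vegfa was higher than 87.0% and Pdgfa higher than 92.6%. The part of level in the SD was not tested. The SDs of Angpt1 and Pdgfa moved with the floor. With values under 10 FPKM set to 10 they were 0.29 and 1.39, so that Angpt1 was then below Csf1, still at 0.79. With values under 0.1 FPKM set to 0.1 they were 3.04 and 4.13.

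A single mMSC carried 4 to 8 of the 9 genes, with a median of 5, and a single HL1cm 1 to 4, with a median of 3. Of the mMSCs, 7 carried 4 genes, 5 carried 5, 3 carried 6 and mMSC6 carried 8, all but Hgf. mMSC6 was also the finest library by the depth guide (2.56). Over the 16 cells the number of genes carried had r = 0.06 with the number of genes read in the library, given as a description with no test. Vegfb and Angpt1, each read in part of the cells, were together in 2 mMSCs. Vegfb alone of this pair was in 4, Angpt1 alone in 7 and neither in 3.

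The 5 genes read in at least 8 mMSCs were compared pair by pair over the 16 cells, which share a culture label and a chip type. The 10 pairs had Pearson's r from -0.49 to 0.60 with a median of 0.05, and 2 were beyond 0.5. Without mMSC9 and mMSC15, Vegfa with Angpt1 (-0.60) and Fgf7 with Angpt1 (-0.55) were also beyond 0.5. Vegfa with Angpt1 had r = -0.38 over all 16 cells and -0.07 without mMSC4 and mMSC5. Fgf7 with Angpt1, the lowest over all 16 cells (rho -0.41), was at 0.002 without mMSC5 and mMSC14, the 2 cells farthest from the median of Fgf7. It was -0.30 with each library scaled to the same sum. Vegfa and Pdgfa had r = 0.60 (Spearman's rho 0.43), and 0.44 without the 2 cells farthest from the median of Vegfa, mMSC4 and mMSC5. Vegfa and Fgf7 had r = 0.52 (rho 0.44), but the value moved with the cells and the scaling: it was 0.12 without the same 2 cells, on which r = 0.52 rested, 0.77 without mMSC9 and mMSC15, and 0.71 with each library scaled to the same sum. Fgf7 and Csf1, the main pair, had r = -0.24 (rho -0.46), which changed sign to 0.31 when each library was scaled to the same sum. The summed FPKM of the libraries ran from 630240 to 2529610 in the mMSCs, so that this scaling moved single cells.

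The genes most alike to each of these 5 over the 16 mMSCs were sought among the 6777. For Fgf7 they were Ssbp1 (r = 0.76), Irak2 and Chst11 (0.75 each). For Csf1 they were Rcbtb1 (0.82), Sgcb (0.75) and Aldh3a2 (0.73). Vegfa was nearest to Rcn3 (0.78), Hoxa10 (0.74) and Rab6a (0.73). Pdgfa was nearest to Wdfy1 (0.83), Mrpl13 and Fam149a (0.80 each), and Angpt1 to Pygl and Atad2b (0.79 each) and Dennd4c (0.75). For comparison, the highest r of a gene with any other had a median of 0.82 over all 6777 genes, with 5th and 95th percentiles of 0.75 and 0.90.

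Receptors of these ligands were read in the same cells. Of 15 receptor genes, 11 were read in a single cell, 4 were at least 1 log2 unit higher in the mMSCs (Fgfr1, Pdgfrb, Pdgfra and Csf1r; 18.8% of all genes) and Kdr was lower by 1.08 (19.4%). Flt1, Fgfr4, Tek and Tie1 were listed at 0 in every library. The median difference over the 11 was 0.33. Fgfr1, a broad FGF receptor, was at 12.7 to 97.5 FPKM in every mMSC and at most 0.93 in HL1cm. Pdgfrb was at 7.57 to 48.3 FPKM in every mMSC and at 0 in all 5 HL1cm, and Pdgfra, the receptor that PDGF-A binds, was read in 10 mMSCs, up to 29.5 FPKM, and in no HL1cm. The neuropilins, co-receptors of VEGF, were shared by both types: Nrp1 was in 14 mMSCs and, at 11.8 to 19.4 FPKM, in all 5 HL1cm, and Nrp2 in 13 mMSCs and 4 HL1cm.

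Ligand and receptor were then counted within single mMSCs. Csf1 was in all 16 and its receptor Csf1r, itself in the macrophage list, in 8, at up to 32.6 FPKM. Of the other 9 genes of that list, 5 were at 0 in every library, Cd14 was in 15 mMSCs (median 62.5 FPKM, up to 337) and no HL1cm, and Cd68 was in 1 mMSC at 48.1 FPKM. Their part in the Csf1r values was not tested. Pdgfa met its receptor Pdgfra in 8 cells and was read together with Pdgfrb in 12. Csf1, Fgf7, Vegfa and Pdgfrb were each in all 16 mMSCs, so that counts with any of them only repeat the count of the partner. Fgf7 met Fgfr2, whose epithelial splice form is its receptor, in 4 cells, at up to 5.52 FPKM, and the table does not separate splice forms. Vegfa met Nrp1 in 14 cells but the signalling receptor Kdr in 1. Angpt1 met its receptor Tek in none, and Met, the receptor of HGF, was in 6 mMSCs and 1 HL1cm although Hgf was in none. Fgfr2, Kdr and Met fell outside the rule for naming genes and are named as receptors of these ligands.

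**Figure D4:**
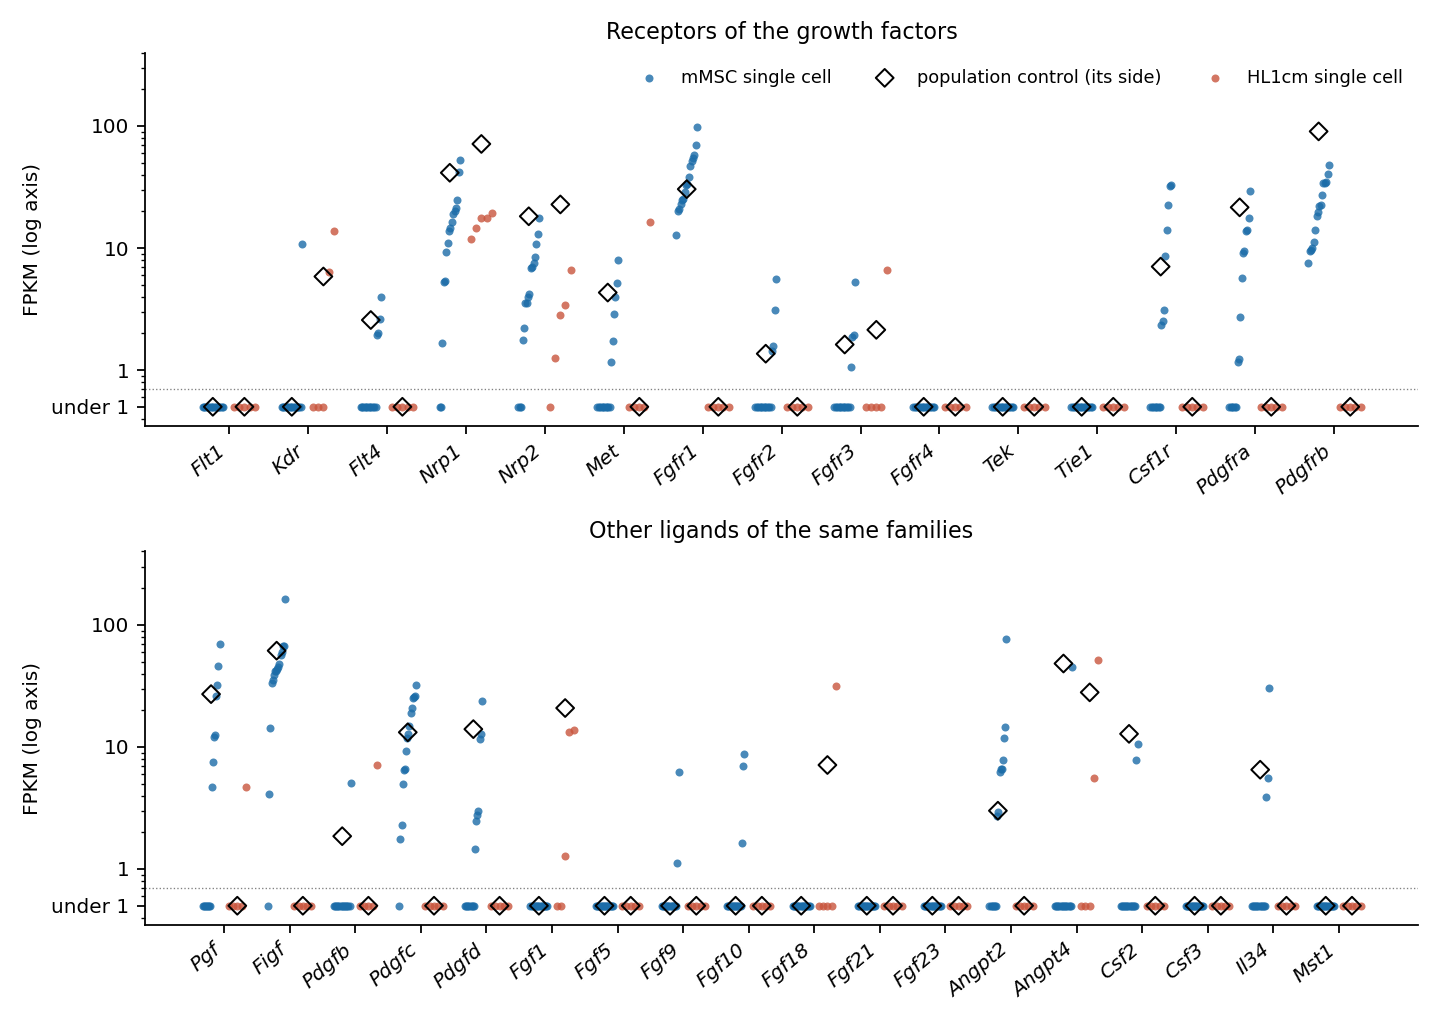
FPKM (log axis) of 15 receptor genes (top) and 18 related ligand genes (bottom) in single mMSCs (blue), single HL1cm (red) and the population controls (open diamonds), with values under 1 FPKM below the dotted line. Fgfr1 and Pdgfrb are read in all 16 mMSCs and no HL1cm, and Figf and Pdgfc in 15 of 16 mMSCs and no HL1cm.

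Related ligands of the same families added further transcripts. Of 18, 13 were read in a single cell, 5 were at least 1 log2 unit higher in the mMSCs (Figf, Pdgfc, Pgf, Angpt2 and Pdgfd; 18.8% of all genes) and 2 lower (Fgf1 and Angpt4; 19.4%), with a median difference of 0.41. Fgf5, Fgf21, Fgf23, Csf3 and Mst1 were at 0 in every library. Figf, which encodes VEGF-D, was read in 15 mMSCs with a median of 42.9 FPKM and a highest value of 162, above the median of Vegfa, and in no HL1cm. Pdgfc was also in 15 mMSCs and no HL1cm, with a median of 12.2 FPKM. Placental growth factor (Pgf) was in 8 mMSCs, up to 70.4 FPKM, and in HL1cm3 at 4.68. Angpt2, which opposes Angpt1 in many settings, was in 9 mMSCs with a median of 2.83 FPKM. Fgf1 was read in no mMSC and in 3 of 5 HL1cm, up to 13.7 FPKM. Pdgfd and Angpt4 were outside the rule for naming and are named to complete the counts. Angpt4 was read in 1 mMSC and 2 HL1cm, and its population controls ran the other way, at 48.3 FPKM in mMSC-PC and 28.0 in HL1cm-PC.

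Genes for proteins that activate, release or store these factors were also read. Of 17 genes, 11 were read in a single cell, 4 were higher in the mMSCs (Plau, Plat, Ccbe1 and Adamts3; 18.8% of all genes) and Spint2 was lower (19.4%), with a median difference of 0.67. Plau and Plat, the plasminogen activators, which can also cleave HGF, were read in 12 and 13 mMSCs, up to 89.6 and 71.5 FPKM, and in no HL1cm. Ccbe1, which aids the cleavage of VEGF-C, was in 13 mMSCs, up to 25.1 FPKM, and Adamts3, the enzyme it works with, was named to complete the count. The population controls ran the other way for Adamts3, at 0.38 FPKM in mMSC-PC and 3.52 in HL1cm-PC. Spint2, an inhibitor of HGF-activating proteases, was at 75.3 to 358 FPKM in HL1cm and in 1 mMSC, at 10.6. Furin, which processes VEGF-C and PDGF-A, was in all 16 mMSCs at 1.84 to 25.9 FPKM and in 4 HL1cm. Adam17, a sheddase, was in 13 mMSCs and 5 HL1cm, and Hspg2, a heparan sulphate proteoglycan, in 6 and 3.

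Genes of the oxygen-sensing system, which controls Vegfa in many cells through hypoxia-inducible factors, were read next. Of 7, 6 were read in a single cell, none was at least 1 unit higher in the mMSCs (18.8% of all genes) and 3 were lower (Egln1, Egln2 and Egln3; 19.4%), with a median difference of -0.63. Hif1a was in 15 mMSCs with a median of 22.2 FPKM and in 5 HL1cm with a median of 18.8, a difference of 0.06 on the log2 scale. The prolyl hydroxylase Egln3 was listed at 0 in all 16 mMSCs and read in 4 of 5 HL1cm, up to 8.63 FPKM. Egln1 and Egln2 had differences of -1.15 and -1.29, but the population controls ran the other way for Egln1, at 15.1 FPKM in mMSC-PC and 4.21 in HL1cm-PC. Epas1 was at 0 in every library.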

How the data were processed

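Reads were aligned by the authors to mm10 with TopHat2 (version 2.0.12) and abundance was estimated with Cufflinks (version 2.2.1), both with default options, per the study's methods and the submitters' processing notes. The deposited FPKM values, 1 per gene and library, were used unchanged. Libraries were made from SMARTer cDNA, which does not mark strand, so that reads of overlapping genes on either strand cannot be told apart. Counts were not used here, so no count model was fitted and no interval on a level could be given. The precision of low values is limited by depth, which was gauged from the 10th percentile of non-zero FPKM times kilobases over 1779 genes with a single transcript longer than 1500 bases (GENCODE M21). All 23 libraries were mapped to groups by their labels, and none were identical. Cells of 1 type count as 1 sample, and differences of at least 1 log2 unit are described beside the share of all genes. The 9 genes and all lists were chosen with earlier results of these data known. From the lists, genes read in at least 8 mMSCs or 3 HL1cm were named, and the 3 most alike genes to each member by Pearson's r. The calculation was tested on simulated data built from genes well above the floor in every mMSC and without zeros. It was not tested in this way on low or absent values. Analysis used Python 3.11.15, pandas 2.3.3, numpy 2.4.6, scipy 1.17.1 and matplotlib 3.10.9. Alternatives changed the floor (0.1 or 10 FPKM), the scale, the library scaling, the limit of detection and the cells included. RefSeq and GENCODE coordinates are of GRCm38, the assembly of mm10.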

Additional observations from a re-analysis of the deposited data

Results flagged for a closer look

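A single HL1cm value stood far from the other 4 for 3 of 18 genes examined, the growth factors and the pathway genes meeting the rule for naming that varied among the 5 HL1cm. Fgf7 was at 21.1 FPKM and Vegfa at 3.69 FPKM in HL1cm2, and Pgf was at 4.68 FPKM in HL1cm3, each with the other 4 cells listed at 0. The rule is set to mark about 1 in 20 groups by chance alone. That rate does not cover these 3 genes, since a gene read in 1 cell of 5 is always marked. Pathway genes outside that rule were not examined in this way. Whether these values came from the cells themselves was not tested.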

How the results depend on the processing

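The number of growth factor genes at least 1 log2 unit higher in mMSCs was 2 in place of 5 with values under 10 FPKM set to 10 (Fgf7 and Csf1), and the cause was not tested. The number lower was 0 in place of 1 between the population controls, where Vegfb was not lower, and the cause was not tested. Divided by Gapdh, all 9 genes had the mMSC-PC within the range of the cells, in place of 8. None of the 6 differences past 1 log2 unit changed sign between single cells under the alternatives run. Over these the difference ran from 4.22 to 9.53 for Fgf7, 3.88 to 6.81 for Csf1, 0.90 to 6.36 for Vegfa, 0.90 to 5.24 for Pdgfa, 0.15 to 2.22 for Angpt1 and -5.71 to -1.54 for Vegfb. The share of all genes at least 1 unit higher was 10.9% with no filter and 28.2% among genes that reached 10 FPKM in 2 or more cells, in place of 18.8%, and the share lower was 11.3% and 25.7%, in place of 19.4%. The median of all genes was 0.15 with libraries scaled to the same sum, 0.007 by median ratio and 0.16 by Gapdh. Leaving out mMSC9 and mMSC15, the coarsest libraries, kept both counts at 5 and 1. No paired analysis was possible because no test was made and the replicate numbers only name cells. Counts of reads were not used, so zeros of low transcripts cannot be told apart from missed molecules.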

Other observations

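Some mMSCs were at an extreme for several growth factors at once, a pattern seen after the values were known and not tested. mMSC4 and mMSC6, the only cells with Fgf2 (14.9 and 12.2 FPKM), also had the 2 highest Vegfa values (47.8 and 40.8 FPKM), Fgf7 of 477 and 408 FPKM and Vegfb of 19.6 and 8.30 FPKM. Both were among the finer libraries by the depth guide, at 3.17 and 2.56 against an mMSC median of 4.29. The part of depth in this pattern was not tested. mMSC5 had the lowest Fgf7 (52.6 FPKM) and Vegfa (3.44 FPKM), the highest Angpt1 (18.0 FPKM) and Pdgfa at 0. mMSC14 had the next lowest Fgf7 (66.0 FPKM) with Vegfa of 12.2 FPKM and the third highest Angpt1. Other cells did not share these combinations: mMSC15 had the highest Fgf7 (497 FPKM) and Vegfb (70.5 FPKM) with Vegfa of 5.85 FPKM, and mMSC13 had Fgf7 of 394 FPKM with the second highest Angpt1. mMSC10 had the highest Csf1 (595 FPKM) with Fgf7 near its median, at 219.5 FPKM.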
